A study of Mus musculus with 6 samples.

Results

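The genes of the ISG15 conjugation pathway were examined in cultured mouse astrocytes that expressed the RASopathy-associated protein BRAF KE. The 6 genes Isg15, Uba7, Ube2l6, Herc6, Usp18 and Isg20 were taken by gene name from the 55357 genes of the expression table, and all 6 were found. Primary cortical astrocytes were prepared from late embryos of C57BL/6 mice, transfected with BRAF K499E, a gain-of-function variant, and collected 48 hours later (KE, n = 3 cultures). For stained astrocytes, the paper describes a plasmid in which the CMV promoter drives FLAG-tagged BRAF KE, transfected together with a GFP plasmid. It does not name the plasmid of the sequenced cultures. The comparison group was nontransfected astrocytes, which received no plasmid (NT, n = 3 cultures). The mRNA was sequenced, and the comparison asks which transcripts differed in astrocytes that expressed BRAF KE. Neither BRAF WT nor a plasmid without BRAF is represented among the cultures analysed here, so transfection with a plasmid and expression of BRAF KE cannot be told apart. The labels do not say whether the cultures of a group were separate preparations, so p-values measure the spread between these cultures only.

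ISG15 is a small protein related to ubiquitin that cells make in response to type I interferon and attach to other proteins, a modification called ISGylation. It passes along a chain of enzymes, from the activating enzyme UBA7 (E1) to the conjugating enzyme UBE2L6 (E2) and then to a HERC ligase (E3), which in mice is HERC6. The protease USP18 removes ISG15 from its targets, and apart from that activity it binds a chain of the interferon receptor and damps its signal. Free ISG15 is also secreted and acts on immune cells through the integrin LFA-1. ISG20 carries a similar name only because the same cytokines induce it, and it is an exonuclease that degrades RNA, not an enzyme of ISGylation.

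Type I interferon acts on many of its target genes through a transcription factor complex that includes STAT2 and IRF9 and binds a DNA element made of repeated GAAA letters. The bases just before the start sites of 3 members are shown because they differ in this element. Each is the 150 bases that precede the start of the Ensembl canonical transcript, in the direction of the gene, and capitals mark every match to GAAANNGAAA on either strand. The Isg15 stretch lies at chr4:156285304-156285453 on the minus strand of GRCm39, and the Usp18 and Herc6 stretches on the plus strand at chr6:121222707-121222856 and chr6:57557782-57557931.
Isg15: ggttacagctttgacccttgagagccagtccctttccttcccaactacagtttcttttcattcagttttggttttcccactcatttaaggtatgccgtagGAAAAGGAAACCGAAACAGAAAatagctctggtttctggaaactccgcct
Usp18: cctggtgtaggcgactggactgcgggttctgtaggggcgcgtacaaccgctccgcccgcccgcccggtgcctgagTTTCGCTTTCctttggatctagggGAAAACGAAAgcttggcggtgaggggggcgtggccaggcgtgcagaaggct
Herc6: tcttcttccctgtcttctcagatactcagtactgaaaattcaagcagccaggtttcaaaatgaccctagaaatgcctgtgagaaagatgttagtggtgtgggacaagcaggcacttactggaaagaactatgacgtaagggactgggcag

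Isg15 held 3 matches on its own strand that overlapped one another, at positions -50 to -41, -44 to -35 and -38 to -29 from the start. Usp18 held a match on the other strand at -75 to -66 and another on its own strand at -51 to -42. Herc6 held none, and Uba7, Ube2l6 and Isg20 held none either. Over the window from 250 bases before to 50 bases after the start, the letters occurred in 2 of the 6 members, against 3.84% of 21770 protein-coding promoters. When 1 mismatch was allowed, all members but Ube2l6, 5 of 6, and 36.1% of all promoters held a match. The Isg20 near match lay at -54 to -45, here with 15 bases on each side, at chr7:78563444-78563483 on the plus strand of GRCm39.
Isg20: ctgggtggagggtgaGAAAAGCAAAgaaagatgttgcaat
The letters TTCNNNGAA, another element found at interferon-responsive genes, were in none of the 6 member windows and in 8.81% of all promoters, and with 1 mismatch in 5 member windows and 71.6% of all promoters. The letters GAAANNGAAA were in 5.21% of 3666 promoters of genes called higher in KE, 3.46% of 3761 of genes called lower and 2.86% of 6374 of genes not called. Where the log2 difference was over 1.5 in size, they were in 21.7% of 299 promoters of genes called higher and 5.32% of 489 of genes called lower. A match is a description of the letters, and binding was not measured.

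The values are normalized counts, gene counts that the authors divided by a size factor for each culture so that cultures can be compared. Braf, the transfected gene, read 35025, 34933 and 40978 normalized counts in KE and 925, 811 and 946 in NT, so it was high in each culture labelled as transfected (log2 difference 5.37 ± 0.08 SE, limma adjusted p = 2.1e-11). Of 15280 genes tested with limma, 51.3% were called at an adjusted p-value under 0.05, with 25.3% higher and 26.0% lower in KE. A called rise was therefore common in these cultures. The median log2 difference over all tested genes was 0.0018. Approximate depth lay between 24490487 and 34144743 reads, and KE replicate 2 was the shallowest. The astrocyte markers were present in every culture, with sums of 194523 to 200354 normalized counts over 10 markers in KE and 142105 to 150693 in NT. Of the 10 markers, 7 were called higher, 1 lower (Gja1, log2 difference -0.46) and 2 not called, Aqp4 at 0.02 and S100b at -0.60. S100b was low in both groups, with means of 17.7 normalized counts in KE and 26.7 in NT.

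All 6 members were higher in KE than in NT, by 3.44-fold for Uba7 to 11.2-fold for Isg20, and in none did the values of the groups overlap. Every KE value lay above every NT value in 30.1% of tested genes. The median log2 difference of the members was 2.63. Only 248 tested genes had a log2 difference above that of Uba7, the smallest of the members. An exact permutation test of 3 against 3 cultures cannot give a two-sided p below 0.1, and each member reached that smallest value.

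**Figure D1:**
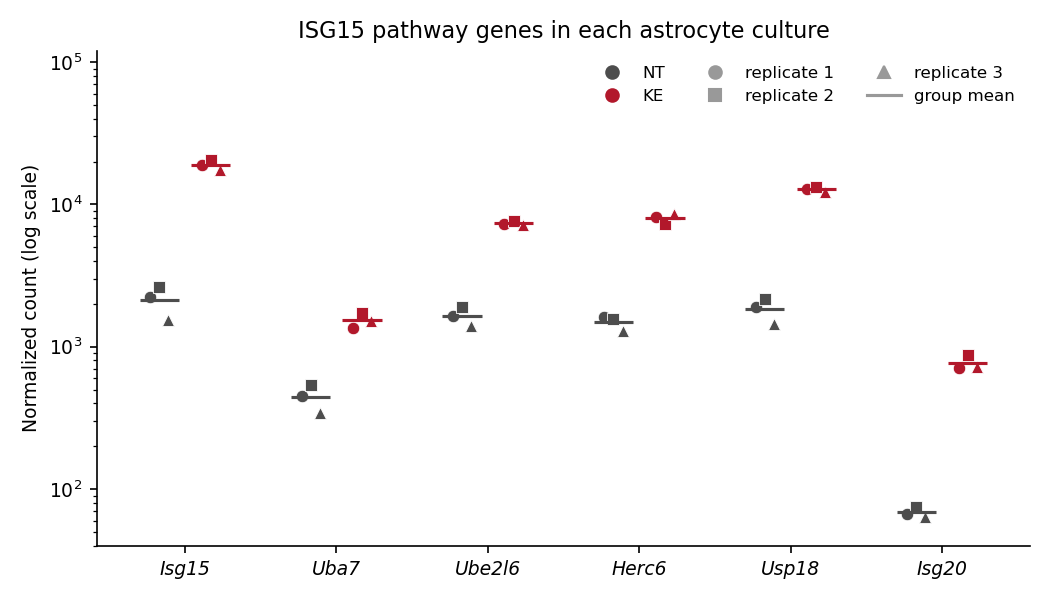
Normalized count of each member in each of the 3 KE and 3 NT cultures, on a log axis, with points for cultures and lines for group means. The KE and NT values are apart for all 6 genes, and the gap is widest for Isg20 and narrowest for Uba7.

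Isg15, the modifier itself (ENSMUSG00000035692, 2 exons of the canonical transcript on the minus strand at chr4:156283883-156285303), read 18854, 20637 and 17485 normalized counts in KE and 2224, 2619 and 1537 in NT. The NT cultures differed more among themselves than the KE cultures, with coefficients of variation of 25.7% and 8.32%, and the lowest KE value was still 6.68-fold above the highest NT value. The mean rose 8.93-fold from 2127 ± 547 to 18992 ± 1580 (SD, n = 3), a log2 difference of 3.19 ± 0.15 SE (limma adjusted p = 4.6e-08). Its rise was the number 59 in size among tested genes.

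Uba7, the E1 that activates ISG15 (ENSMUSG00000032596, 24 exons on the plus strand at chr9:107852704-107861262), read 1355, 1712 and 1526 normalized counts in KE and 452, 539 and 342 in NT. The cultures of both groups were spread, and the lowest KE culture was 2.51-fold above the highest NT culture. The log2 difference was 1.80 ± 0.15 SE (limma adjusted p = 2.2e-06), the smallest of the members. Uba7 overlaps the annotated genes Gm20661 on its own strand, at means of 4.14 in KE and 0.861 in NT, and Inka1 on the opposite strand, which was not called. Whether reads were assigned by strand is not given in the sources used here.

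Ube2l6, the E2 that receives ISG15 from UBA7 (ENSMUSG00000027078, 4 exons on the plus strand at chr2:84628630-84640783), read 7297, 7688 and 7159 normalized counts in KE and 1647, 1894 and 1404 in NT. The KE cultures lay within a coefficient of variation of 3.72%, the narrowest KE spread of the members, and the groups were far apart. The mean was 4.48-fold higher in KE, with a log2 difference of 2.17 ± 0.09 SE (limma adjusted p = 2.3e-08). Its rise was larger than that of Uba7. The window searched around its canonical start lacked the GAAANNGAAA letters even with 1 mismatch, and the rest of the gene was not searched. The part of these letters in the members' rises was not tested.

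Herc6, the ligase that hands ISG15 to proteins in mice (ENSMUSG00000029798, 23 exons on the plus strand at chr6:57557932-57642597), read 8105, 7296 and 8590 normalized counts in KE and 1612, 1558 and 1279 in NT. It was the only member for which KE replicate 2 was the lowest KE culture and not the highest. The mean was 5.39-fold higher in KE, with a log2 difference of 2.43 ± 0.09 SE (limma adjusted p = 1.2e-08). Gm45193, a noncoding gene on the same strand within the Herc6 locus, read 31.8 ± 12.3 in KE and 5.60 ± 4.98 in NT, and reads of the pair could be split between them.

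Usp18, the protease that removes ISG15 (ENSMUSG00000030107, 11 exons on the plus strand at chr6:121222848-121247877), read 12771, 13348 and 12252 normalized counts in KE and 1905, 2156 and 1433 in NT. The KE cultures were close together and the lowest was 5.68-fold above the highest NT culture. The mean was 6.98-fold higher in KE, with a log2 difference of 2.82 ± 0.12 SE (limma adjusted p = 2.2e-08). Its 95% interval of 2.56 to 3.08 overlapped that of Herc6, 2.23 to 2.63.

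Isg20, the exonuclease (ENSMUSG00000039236, 4 exons on the plus strand at chr7:78562598-78570153), read 712, 879 and 721 normalized counts in KE and 67.2, 74.5 and 64.0 in NT. The groups were far apart, and its NT cultures were the closest together of the members, with a coefficient of variation of 7.85%. The mean was 11.2-fold higher in KE, with a log2 difference of 3.47 ± 0.13 SE (limma adjusted p = 9.2e-09), the largest of the members.

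The cultures that were highest and lowest within a group recurred among the members. KE replicate 2 was the highest KE culture for 5 members, NT replicate 2 was the highest NT culture for 5, and NT replicate 3 was the lowest NT culture for all 6. The lowest KE culture varied, replicate 3 for 3 members, replicate 1 for 2 and replicate 2 for 1. Summed over the members, the normalized counts were 49093, 51560 and 47733 in KE and 7907, 8840 and 6060 in NT. Markers of microglia and macrophages differed in the opposite direction between the groups. All 15 of 15 were lower in KE, with a median log2 difference of -3.31. None of the 15 was at 0 in any culture, and their sums were 5575, 7705 and 5601 in KE replicates 1 to 3 and 53227, 52667 and 45219 in NT replicates 1 to 3. The marker sum, like that of the members, was highest in KE replicate 2 and lowest in NT replicate 3. It was lowest in KE replicate 1 and highest in NT replicate 1, where the members' sum was not. That order rested on close sums, 5575 against 5601 in KE replicates 1 and 3 and 53227 against 52667 in NT replicates 1 and 2. Of 8 tested oligodendrocyte lineage markers, 7 were lower in KE and none higher (median log2 difference -0.65), with sums of 27118 to 31887 in KE and 35982 to 36234 in NT. This count was 4 without KE replicate 3 or without NT replicate 2. Olig1 made up most of the oligodendrocyte lineage sums, with means of 20749 in KE and 23693 in NT. Its call at a log2 difference of -0.20 was lost in 6 of 14 alternative settings. Of 6 tested neuron markers, 1 was higher, 2 were lower and 3 not called (median log2 difference -0.04). The sums of the neuron markers were 6704 to 7116 in KE and 8737 to 9395 in NT. Map2 made up most of these sums, with means of 4965 in KE and 7077 in NT, while Tubb3 was called higher at 0.43. The sums of the vascular and mesenchymal markers overlapped, at 1603 to 1783 in KE and 1508 to 1801 in NT. The part of these cells in the members' values was not tested. In bulk RNA, fewer cells of a type and less RNA per cell cannot be told apart.

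Levels of different genes were compared per kilobase of merged exons, as normalized counts per kilobase. In KE, Isg15 stood at 24286 ± 2021 (SD, n = 3), rank 33 of 15240 tested genes with a length, and in NT at 2719 ± 700, rank 292. With the longest or the canonical transcript as the length of each gene, its rank was 37 or 44 in KE and 443 or 629 in NT. Usp18 followed in KE at 3936 ± 169, then Ube2l6 at 2634 ± 97.9, Herc6 at 766 ± 62.6, Isg20 at 302 ± 36.7 and Uba7 at 229 ± 26.7. The KE values of neighbours in this order did not overlap, although those of Isg20 and Uba7 did when the canonical transcript gave the length, with Uba7 then at 478 ± 55.8 and Isg20 at 542 ± 66.0. The order in NT was Isg15, Ube2l6 at 588 ± 87.5, Usp18 at 563 ± 113, Herc6 at 142 ± 17.1, Uba7 at 66.4 ± 14.7 and Isg20 at 26.8 ± 2.1, and there Ube2l6 and Usp18 overlapped. Isg15 made up 75.5% ± 0.962 of the members' summed level per kilobase in KE and 65.9% ± 2.31 in NT. The share of Ube2l6 was 8.21% in KE and 14.5% in NT, and that of Uba7 0.711% and 1.62%. The shares depend on the length used, and with the canonical transcript they were 62.9% in KE and 51.5% in NT for Isg15, 12.2% and 20.3% for Ube2l6 and 1.24% and 2.65% for Uba7.

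The balance between members was compared as log2 ratios of normalized counts within each culture, over all 15 pairs. None of the pairs passed a threshold of 0.05, which 3 cultures a group cannot reach. In 13 pairs the KE and NT ratios did not overlap, each with an exact permutation p of 0.1 (adjusted over the 15 pairs, 0.115), and among all 7486515 pairs of genes called higher in KE the same held for 52.4%. The ratio of Isg15 to Uba7 was 3.80, 3.59 and 3.52 in KE and 2.30, 2.28 and 2.16 in NT. The ratio was higher in every KE culture than in any NT culture, by 1.39 in the mean. Isg15 to Ube2l6 read 1.37, 1.42 and 1.29 in KE and 0.43, 0.47 and 0.13 in NT, a mean shift of 1.02. Isg15 to Herc6 shifted by 0.76 and Isg15 to Usp18 by 0.37. Ube2l6 to Usp18 moved from -0.14 ± 0.10 in NT to -0.79 ± 0.02 in KE, and Uba7 to Usp18 from -2.04 to -3.07. Both of these ratios to the protease were lower in every KE culture than in any NT culture, and that of Herc6 to Usp18 was lower by 0.39. The ratios of Isg15 to Isg20 (exact permutation p = 0.3) and of Ube2l6 to Herc6 (exact permutation p = 0.2) overlapped between the groups.

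**Figure D2:**
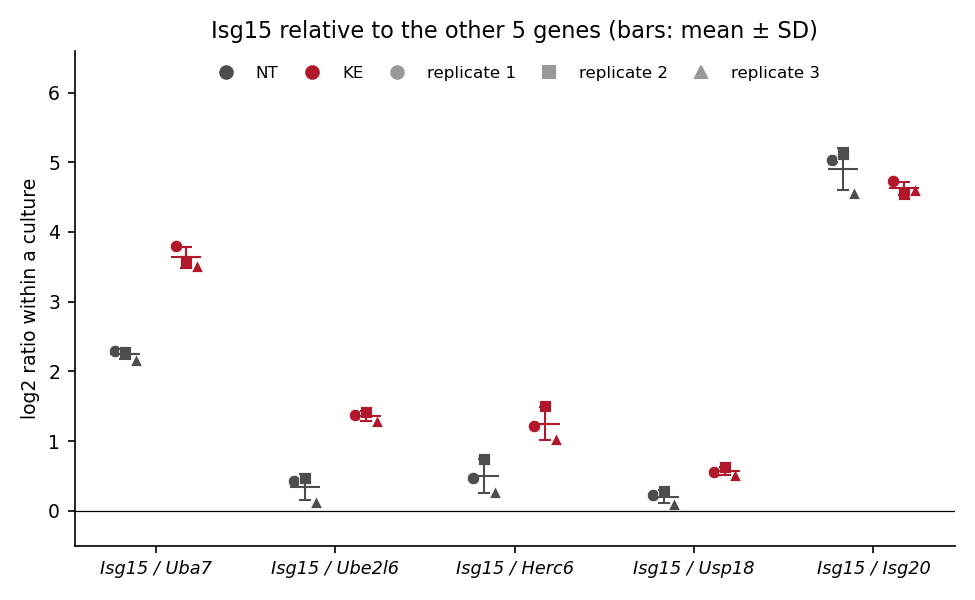
Log2 ratio of Isg15 to each other member within a culture, with a point for each KE and NT culture, shaped by replicate, and bars for the group mean and SD. The ratios to Uba7, Ube2l6, Herc6 and Usp18 are higher in KE without overlap, by 1.39 for Uba7 down to 0.37 for Usp18, and the ratio to Isg20 overlaps.

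Of 47 tested genes for other ubiquitin-like modifiers, their enzymes and their proteases, 14 were higher, 11 lower and 22 not called, with log2 differences from -0.53 to 1.13 and a median of 0.03. All 47 thus lay below Uba7, the member with the smallest difference. Without NT replicate 1, 7 of them were called lower. Together with the substrate, receptor and exonuclease lists described further on, 78 genes were tested, of which 26 were higher, 20 lower and 32 not called, from -3.73 for Itgal to 2.20 for Ifih1. Among 12 other ubiquitin-like modifiers, 5 were higher, 3 lower and 4 not called (median 0.03). Sumo2, a SUMO modifier gene, fell by 0.52 on the log2 scale (limma adjusted p = 5e-05). Of 8 other E1 genes, 3 were higher and 3 lower (median 0.12), from Atg7 at 0.31, which activates autophagy modifiers, to the SUMO enzyme gene Uba2 at -0.43. Uba1, the paralog that activates ubiquitin, read 18398 ± 116 in KE and 17277 ± 462 in NT and was not called, with a log2 difference of 0.09 and a 95% interval of -0.02 to 0.21.

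The paralog of Ube2l6 was not called. Ube2l3, an E2 for ubiquitin, read 8357 ± 315 normalized counts in KE and 8217 ± 259 in NT, and its log2 difference of 0.02 had a 95% interval of -0.10 to 0.14. Of 12 other E2 genes, 4 were higher, 1 lower and 7 not called (median 0.03), from Ube2e2 at 0.50 to Ube2e3 at -0.21. The call on Ube2e3 was lost in 2 of 14 alternative settings. Among 6 other E3 genes, 1 was higher and 2 were lower (median -0.18). Trim25, itself an interferon-induced ligase that has been reported to attach ISG15, read 6338, 6957 and 6770 in KE and 3076, 3258 and 2819 in NT, a log2 difference of 1.13 ± 0.07 SE (limma adjusted p = 1.9e-07). The groups of Trim25 were well apart, and its difference was below that of every member. The other HERC genes were not called higher, with Herc1 at -0.53 (limma adjusted p = 2.7e-05), Herc4 at -0.24, a call lost in 4 of 14 alternative settings, and Herc3 at -0.21 with a 95% interval of -0.45 to 0.02.

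Of 9 other proteases that act on ubiquitin or ISG15, 1 was higher, 2 were lower and 6 were not called (median 0.03). Usp5 had a log2 difference of 0.17 (limma adjusted p = 0.049), a call lost in 9 of 14 alternative settings, and Usp7 one of -0.39 (limma adjusted p = 0.00052). Usp41, a close relative of Usp18, was not analysed here. Of 16 genes for proteins known to carry ISG15, 7 were higher, 1 lower and 8 not called (median 0.13). Ifih1, which encodes the RNA sensor MDA5, had the largest difference of the list, 6292 ± 354 against 1385 ± 228 (log2 difference 2.20 ± 0.11 SE, limma adjusted p = 4.8e-08). Eif4e2 had the only called fall at -0.23, lost in 3 of 14 alternative settings.

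**Figure D3:**
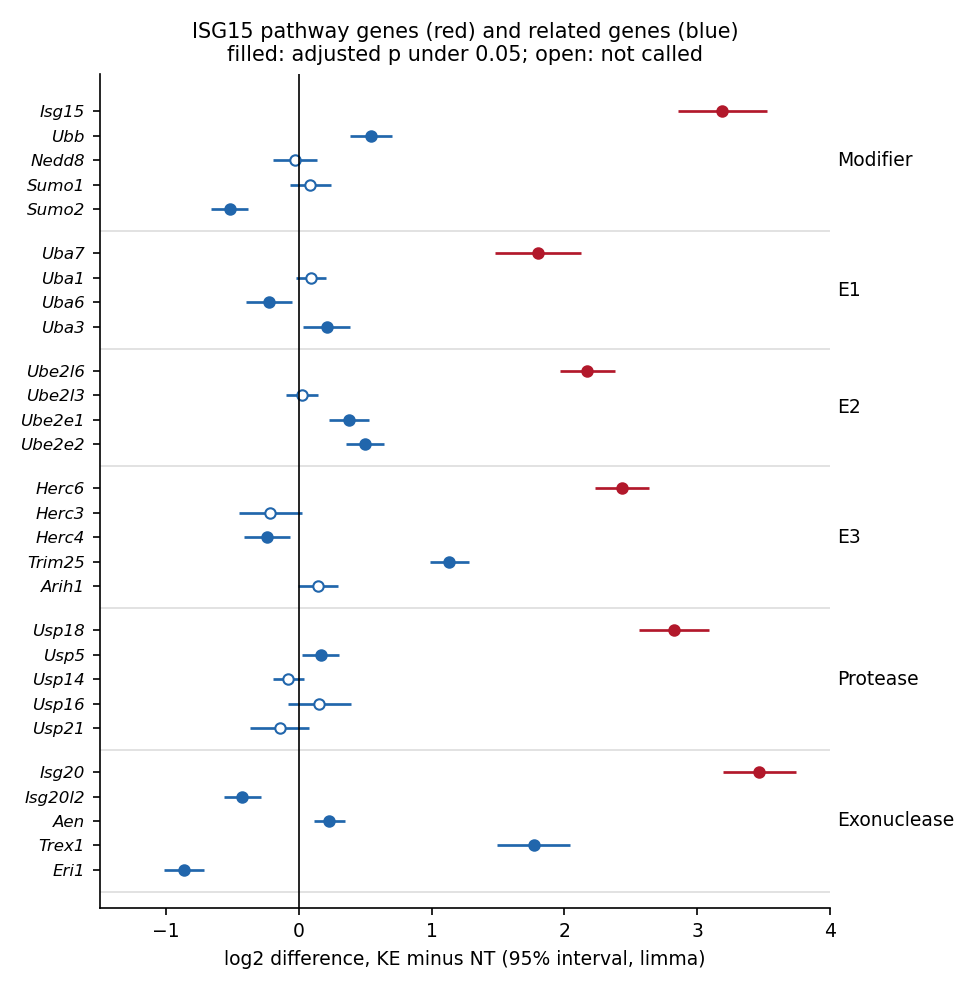
Log2 difference (KE minus NT) with its 95% interval for each member and for related genes of the same role, on the log2(normalized count + 1) scale. The members lie from 1.80 to 3.47, while the intervals of Uba1, Ube2l3 and Herc3 include 0 and those of Herc4 and Isg20l2 lie below 0.

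The list of the interferon receptor arm, on which USP18 acts apart from its protease activity, also held Skp2, which is not a receptor gene. Its 8 tested genes were all called, 6 higher and 2 lower (median log2 difference 0.36), against 51.3% of all tested genes. Tyk2, a kinase of the receptor, had the highest adjusted p of the list at 0.035 with a log2 difference of 0.22 in limma, and its call was lost in 6 of 14 alternative settings. The receptor chains moved apart. Ifnar1 read 2588, 2440 and 2523 normalized counts in KE and 3075, 2961 and 3085 in NT, so every KE culture was lower (log2 difference -0.27, limma adjusted p = 0.0018). Ifnar2, the chain that USP18 binds, read 1676, 1440 and 1463 in KE and 1047, 1151 and 1018 in NT, so every KE culture was higher (log2 difference 0.51, limma adjusted p = 0.00032). Of the signal carriers downstream, Stat2 read 7343 ± 402 in KE and 2295 ± 175 in NT (SD, n = 3), a log2 difference of 1.68 ± 0.07 SE (limma adjusted p = 2e-08). Irf9, its DNA-binding partner, read 4021 ± 137 and 2199 ± 184, a smaller log2 difference of 0.87 (limma adjusted p = 1.9e-06). Skp2, part of the ubiquitin ligase reported to degrade USP18, fell from 1271 ± 87.6 to 571 ± 26 (log2 difference -1.15, limma adjusted p = 5.8e-07). Ifnb1, the gene for the ligand interferon beta, read 233, 198 and 235 in KE but 0 in each of the 3 NT cultures as listed, so no fold is given.

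Both chains of LFA-1, the receptor of secreted ISG15, were lower in KE. Itgal read 91.2, 121 and 109 normalized counts in KE and 1663, 1832 and 952 in NT, and Itgb2 read 253, 296 and 236 in KE and 2467, 2683 and 2334 in NT. The groups were far apart for both genes, with log2 differences of -3.73 and -3.25 (limma adjusted p = 1.5e-07 and 4.3e-09). Both are leukocyte genes, and they differed in the same direction and by a similar amount as the microglia and macrophage markers (median -3.31), whose part in this result was not tested.

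Of 9 tested relatives of Isg20 among exonucleases, 2 were higher, 4 lower and 3 not called, with a median log2 difference of 0.00. Isg20l2, the paralog that works on ribosomal RNA, fell from 1603 ± 80.7 to 1193 ± 19.3 normalized counts (log2 difference -0.42, limma adjusted p = 0.00024). Trex1, a DNA exonuclease that restrains interferon responses, differed by 1.77 ± 0.12 SE (limma adjusted p = 7.2e-07), below Isg20 at 3.47. Eri1, an exonuclease of histone mRNA and small RNAs, had the largest fall at -0.87 (limma adjusted p = 1.8e-06).

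**Figure D4:**
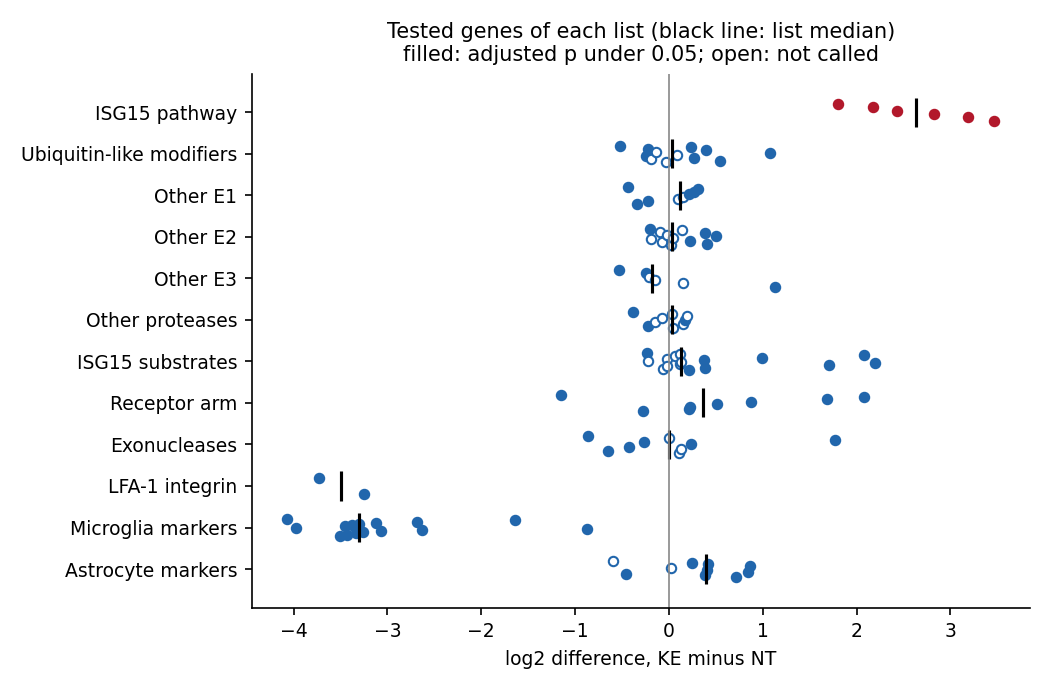
Log2 difference (KE minus NT) of every tested gene of each list and of the microglia and astrocyte markers (filled, called; open, not called), on the log2(normalized count + 1) scale, with the median of each list marked. The 6 members have a median of 2.63, the other conjugation lists have medians between -0.18 and 0.12, and both LFA-1 genes lie below -3.

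The genes with the pattern most like each member were found by the root mean square difference between log2 profiles over the 6 cultures, each centred on its NT mean, among 12066 genes with a mean of at least 100. Ube2l6 had the closest neighbours, H2-Q4 at 0.0473, AW011738 at 0.0493 and Ddit3 at 0.0495. Those of Usp18 were Gadd45b at 0.0526, H2-Q6 at 0.071 and Gbp2 at 0.085. Uba7 was nearest to Ifi35 at 0.0799, H2-Q7 at 0.0836 and Trex1 at 0.0837, and Herc6 to Gbp9 at 0.0788, Irgm1 at 0.0916 and Gm20559 at 0.114. Isg15 was nearest to H2-T23 at 0.096, Igtp at 0.168 and Ifit1 at 0.222, and Isg20 to Ppl at 0.164, Ifit2 at 0.176 and BC023105 at 0.185. Isg15 and Isg20, the members with the largest rises, thus had the least close neighbours. The H2-Q and H2-T, Gbp, Irgm, Igtp and Ifit genes belong to families of similar sequence, and their values are uncertain to the extent that reads were divided among copies.

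The 6 members lie on 5 chromosomes, with Herc6 and Usp18 both on chromosome 6. Of the 12 nearest protein-coding genes on either side of the members, a choice made after their values were known, 5 were called higher, 1 lower and 3 not called, and 3 were not tested. Agrn, 1868 bases from Isg15, read 18310 ± 1315 normalized counts in KE and 12416 ± 548 in NT, a log2 difference of 0.56 (limma adjusted p = 3.6e-05). Serping1, the interferon-responsive complement inhibitor gene 7756 bases from Ube2l6, differed by 0.74 (limma adjusted p = 4.4e-06). Aen, an exonuclease relative 1640 bases from Isg20, differed by only 0.23 (limma adjusted p = 0.0041). The called fall was Traip near Uba7 at -0.43 (limma adjusted p = 0.039), whose groups overlapped and whose call was lost in 5 of 14 alternative settings. Perm1 near Isg15 had the largest difference of these protein-coding neighbours at 1.28, below that of every member. The noncoding gene AW011738 lies between Isg15 and Perm1 at chr4:156287656-156295023 on the plus strand, and its log2 difference was 2.18, above that of Uba7. Gm45193 within the Herc6 locus differed by 2.80 (limma adjusted p = 0.011), a call lost in 1 of 13 alternative settings. At these low counts its value moved to 1.73 without NT replicate 1, the NT culture in which it is listed at 0, and to 3.43 without NT replicate 3.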

How the data were processed

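The authors deposited normalized counts for 55357 genes in 6 astrocyte cultures (3 KE, 3 NT), a signal made from gene counts by division with DESeq2 size factors. The study's methods give TrimGalore, STAR on GRCm39 with Gencode models, and Salmon, while the labels' processing notes name a human build although the identifiers are mouse. They mention batches without naming them. Only 72.7% to 75.8% of low values were whole multiples of one read's worth (within 0.1), so whole reads were not recovered, no count test was run and counting error is not known. Genes whose mean over the 6 cultures reached 10 were tested with limma (version 3.58.1, R version 4.3.3) on log2(normalized count + 1), using a model of the groups alone and a variance trend. P-values are two-sided and Benjamini-Hochberg adjusted over 15280 genes, and a call is an adjusted p under 0.05. Fold changes on this scale are understated for low genes. The fit was tested on simulated data. Positions, exons and promoters came from Gencode vM39 on GRCm39, which held 54749 of the identifiers. Named genes were Braf, Ifnb1, the members, the called gene with the largest rise and fall of each list, paralogs, Trim25, Stat2, Irf9 and receptor genes, the 3 most similar profiles per member, and flanking genes added later. Values of some genes that this rule names are not reported here. The members and lists were chosen with earlier results of these data known. Other pseudocounts, filters, scalings, fits, lengths and motif settings, a replicate block and leaving out each culture were tried as alternatives.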

Additional observations from a re-analysis of the deposited data

How the results depend on the processing

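All 6 members were called higher under every alternative run. Log2 differences under the alternatives were taken for the members, the listed genes, the flanking genes and the most similar profiles only. Among these, no called log2 difference changed sign, while some that were not called did, such as Ube2l3 with a range of -0.01 to 0.06. Leaving out each culture in turn moved the members' log2 differences within 2.97 to 3.36 for Isg15, 1.62 to 1.95 for Uba7 and 2.06 to 2.28 for Ube2l6. The ranges were 2.33 to 2.50 for Herc6, 2.66 to 2.95 for Usp18 and 3.37 to 3.53 for Isg20. The highest adjusted p of a member over the alternatives was 8.1e-04, for Uba7. Small list counts moved, and the cause was not tested. Other proteases called higher went to 0 with no filter, with scaling to the 75th percentile and without limma's trend, and without the trend 7 of the 47 other conjugation genes, 1 other protease, 1 other E3 gene and 0 ISG15 substrates were called lower. With a mean of at least 50, 2 other E2 genes were called lower, and with the 75th percentile 2 substrates. Leaving out 1 culture gave 7 to 12 other conjugation genes lower, 1 to 2 other E3 genes higher and 1 to 4 lower, 0 to 1 other proteases higher and 1 to 2 lower, 0 to 2 substrates lower and 0 to 2 other E2 genes lower. With the longest annotated transcript as length, Usp18 ranked 2 and Ube2l6 ranked 3 in NT. With 1 mismatch allowed, 36.1% of promoters and 5 members held the GAAANNGAAA letters. KE replicate 2 was the shallowest library, and depth limits genes of low counts.

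When the replicate block was added, 3967 tested genes were called higher and 4079 lower, 2 other E2 genes and 2 ISG15 substrates were lower, and the 6 members remained called. Same-numbered cultures had correlations of deviations of 0.059, 0.066 and 0.065 over 15280 genes, too small to treat the numbers as pairs, although every culture correlated best with its own number.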
